A study of Mus musculus with 8 samples.

Results

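The deubiquitinase genes examined were the 64 symbols of the 35976 in the count table that name a numbered ubiquitin-specific protease (Usp), an Otub or Otud protease of the ovarian tumour (OTU) class, a ubiquitin C-terminal hydrolase (Uchl), or a Stambp metalloprotease, leaving out Usp29, Usp9y and the Usp17l copies. They were chosen by symbol and not by their values. Ubiquitin is a small protein that is attached to other proteins in a chain of steps by activating, conjugating and ligase enzymes. Deubiquitinases cut it off again, and so edit the signals that send a protein to the proteasome, to the endosome or into a repair or chromatin complex. In the oocyte, which finishes growth with little new transcription and relies on stored products, this pathway is known for its part in meiotic division and in protein turnover around fertilisation. Several of these enzymes act on ubiquitin attached to histones H2A and H2B.

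Polyadenylated RNA of mouse full-grown oocytes was sequenced in 8 libraries, 2 in each of 4 groups. The H2A.Z line held controls, given as wild type, and oocytes labelled as a double knockout (DKO) of H2A.Z.1 and H2A.Z.2, the variant forms of histone H2A. The Mll2 line held wild type (WT) and Mll2 knockout (KO) oocytes, MLL2 being an enzyme that methylates a lysine of histone H3. Each library came from a pool of about 20 oocytes stripped of the zona pellucida. The sources used here do not give strain, age, or how and in which cells the genes were deleted. Because each library is a pool, less transcript in every oocyte and fewer oocytes holding it cannot be told apart. Nothing in the labels ties replicates to separate animals, so each p-value measures only the spread between these libraries.

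Total counts ran from 20309233 to 30087863 per library, and 16847 genes passed the filter on low counts. The oocyte markers were present: all 10 (among them Zp3, Gdf9 and Ooep) were above 10 CPM in every library, with a summed level of 15690 to 23950 CPM. CPM here are counts relative to each library's total after scaling the libraries to each other. Marker lists of other ovarian cells were at low level, with all 3 sums higher in both labelled libraries than in both their controls. Granulosa and cumulus markers summed to 93.5 and 94.7 CPM in the H2A.Z controls and 111 and 112 CPM under the DKO label, and to 96.2 and 96.6 CPM in Mll2 KO against 91.5 and 94 CPM in WT. Theca and stroma markers summed to 14.3 and 16 CPM against 27 and 23.8 CPM under the DKO label, and to 8.92 and 10.2 CPM in Mll2 WT against 9.2 and 9.67 CPM in KO. Those of blood, immune and endothelial cells summed to 19.2 and 20.7 CPM against 31.3 and 27.8 CPM under the DKO label, and to 33.7 and 32.9 CPM in Mll2 WT against 34.6 and 43.5 CPM in KO. In Mll2 KO the granulosa and blood sums were above those of both WT libraries and the theca sum overlapped with them. Of 9 tested granulosa markers 3 were higher and 1 lower under the DKO label, and 2 higher and 2 lower in Mll2 KO, where their median log2 difference was 1.3 and 8 had an unadjusted p under 0.05. The part of such cells in the results below was not tested. In these lists 5 of 12, 7 of 10 and 10 of 12 genes stayed under 1 CPM throughout. In the same order, 0, 1 and 5 genes had 0 counts in every library, among them Col3a1, Hba-a1 and Cdh5. Above 10 CPM in every library stood 2, 0 and 1 genes (Cyp19a1, Nr5a2 and Pecam1).

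The libraries labelled DKO went against their label: H2afz, the gene of H2A.Z.1 (chromosome 3, 137864487 to 137866922), measured 322 and 317 CPM under the DKO label, against 23.9 and 29.9 CPM in its controls (log2 3.56, adjusted p = 6.63e-10). H2afv, the gene of H2A.Z.2 (chromosome 11, 6427226 to 6444511), measured 285 and 294 CPM under the DKO label, against 108 and 107 CPM in its controls (log2 1.43, adjusted p = 1.73e-07). Counts are over whole genes, and the sources used here do not say which exons were removed. Directions in this line are therefore those of the label and not of a measured loss of H2A.Z transcript. Kmt2b, the gene of MLL2 (chromosome 7, 30568855 to 30589056), measured 8.73 and 9.27 CPM in Mll2 KO, against 41.9 and 42.4 CPM in WT (log2 -2.23, adjusted p = 2.72e-08). H2afz was also higher in Mll2 KO, at 19.4 and 15 CPM against 7.04 and 7.09 CPM in WT (log2 1.28, adjusted p = 1.21e-05). H2afv did not pass the test there (log2 0.19, adjusted p = 0.165). Kmt2b was higher under the DKO label, at 20.4 and 20.5 CPM against 13.7 and 15.4 CPM (log2 0.49, adjusted p = 0.018).

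Of the 64 genes, 62 passed the filter and were tested. Otud6a, an X-linked gene, had 0 counts in every library, which allows up to 0.0989 to 0.155 CPM (3 counts, counting error only). Usp18, whose product removes the ubiquitin-like protein ISG15, had at most 2 counts in any library. The filter admits a gene that is high in any 1 group, so a gene near the filter's limit may have passed only through the group where it is high. All 62 had counts in every group, and 51 reached 10 CPM in at least 1 group.

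The oocytes held one deubiquitinase transcript far above the rest. Uchl1, which encodes a hydrolase known from neurons and germ cells, stood at 1508 CPM per kb of transcript as the mean of both control groups, and it made up 21.6 to 32.7% of the summed CPM of the 64 genes in a library. Per kb, the related hydrolase gene Uchl3 followed at 229.8, then Usp46, whose product works with the activator WDR48, at 105, Usp7, whose product acts on MDM2 and p53, at 93.3, and the histone H2A deubiquitinase gene Usp16 at 90.3. At the other end Usp25, Otud7a, Usp40 and Stambpl1 were under 0.3 CPM per kb as the mean of both control groups. In the H2A.Z controls alone Stambpl1 stood at 0.445. These levels rest on the longest coding transcript of each gene in GENCODE M21, and oocytes may use a shorter one.

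**Figure D1:**
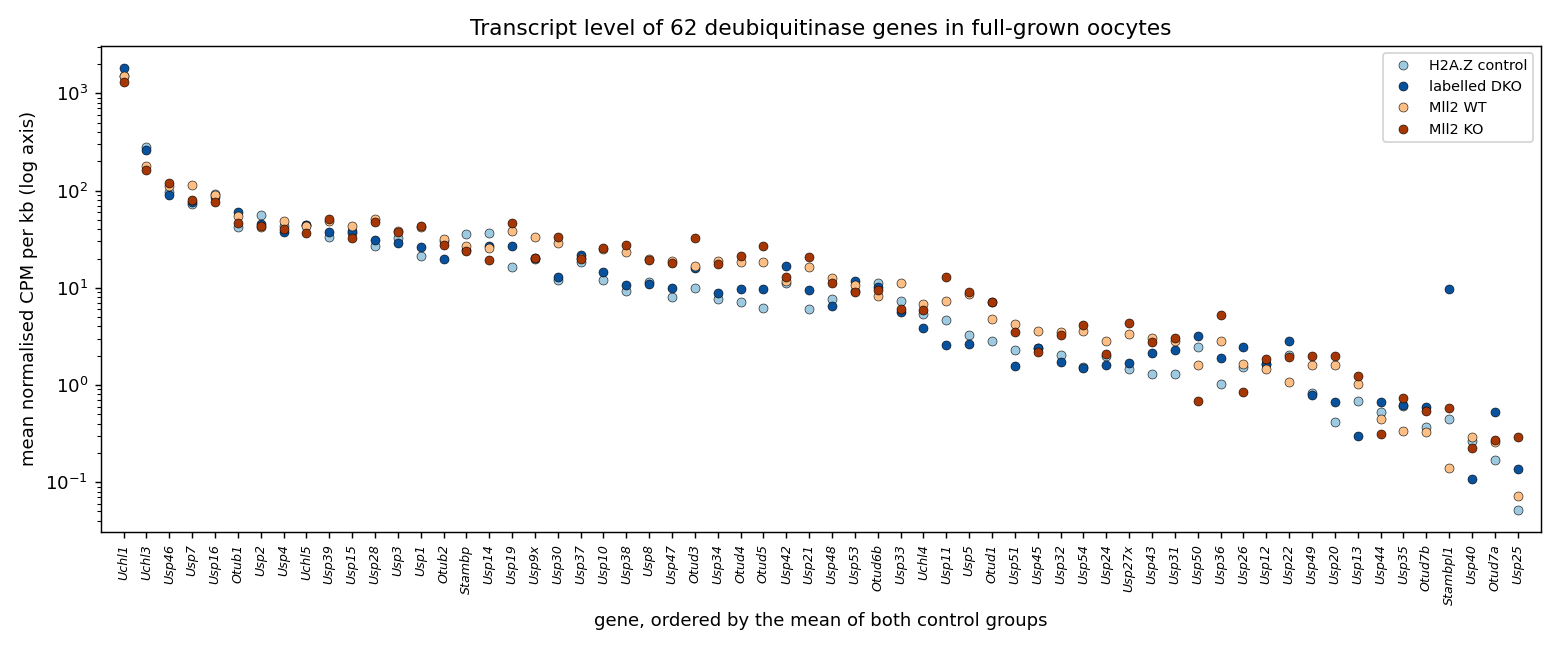
Mean normalised CPM per kb of transcript (log axis) of the 62 tested deubiquitinase genes, ordered by the mean of both control groups; each point is the mean of 2 libraries. Uchl1 stands alone at the top, and Stambpl1 is the gene whose labelled DKO point lies farthest above the other 3 groups.

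In the libraries labelled DKO, 22 of the 62 genes (35.5%) passed the test at an adjusted p of 0.05, beside 30.9% of all tested genes. Of these 16 were higher (25.8%, beside 19.4% of all genes) and 6 lower (9.68%, beside 11.5%). In Mll2 KO, 18 passed (29%, beside 30.6% of all genes), with 9 higher (14.5%, beside 14.4%) and 9 lower (14.5%, beside 16.2%). The shares of members called lie near those of all genes in each line. The median log2 difference of the 62 was 0.14 under the DKO label, beside 0.12 for all genes, and 0.0057 in Mll2 KO, beside 0.017.

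Few members changed strongly: 4 of 62 (6.45%) passed the test with more than 2-fold change in each line, beside 11.7% of all genes under the DKO label and 12.6% in Mll2 KO. Members and all genes were not matched for expression level here, so these shares are not a trait shown for deubiquitinase genes as such. Stambpl1 was the 1 member called past 4-fold in each line, beside 4.1% of all genes under the DKO label and 4.52% in Mll2 KO. Under the DKO label 31 members had both labelled libraries above both controls and 16 below (all genes 43.4% and 26.9%). In Mll2 KO these counts were 21 and 23 (all genes 32.2% and 32%).

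The split between higher and lower in the H2A.Z line depended on scaling: it was 16 and 6 here, and 14 and 7 with the scaling of DESeq2. It was 12 and 10 with library size alone, and 15 and 19 with that line fitted alone. The median log2 difference of all genes was 0.12, 0.082, 0.0018 and 0.0056 in these fits. In Mll2 KO the split was 14 and 7 with library size alone, where the median of all genes was 0.14. The lower count under the DKO label was 18 without Mll2 KO 1, 18 without Mll2 KO 2 and 10 without Mll2 WT 2. It was 3 without H2A.Z control 1 and 2 without DKO 1. The higher count there was 6, 9, 8 and 10 without H2A.Z control 1, H2A.Z control 2, DKO 1 and DKO 2, and 9 without Mll2 WT 2. In Mll2 KO the higher count was 17 without KO 1, 5 without KO 2 and 3 without WT 2, and the lower count 4 without WT 2.

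**Figure D2:**
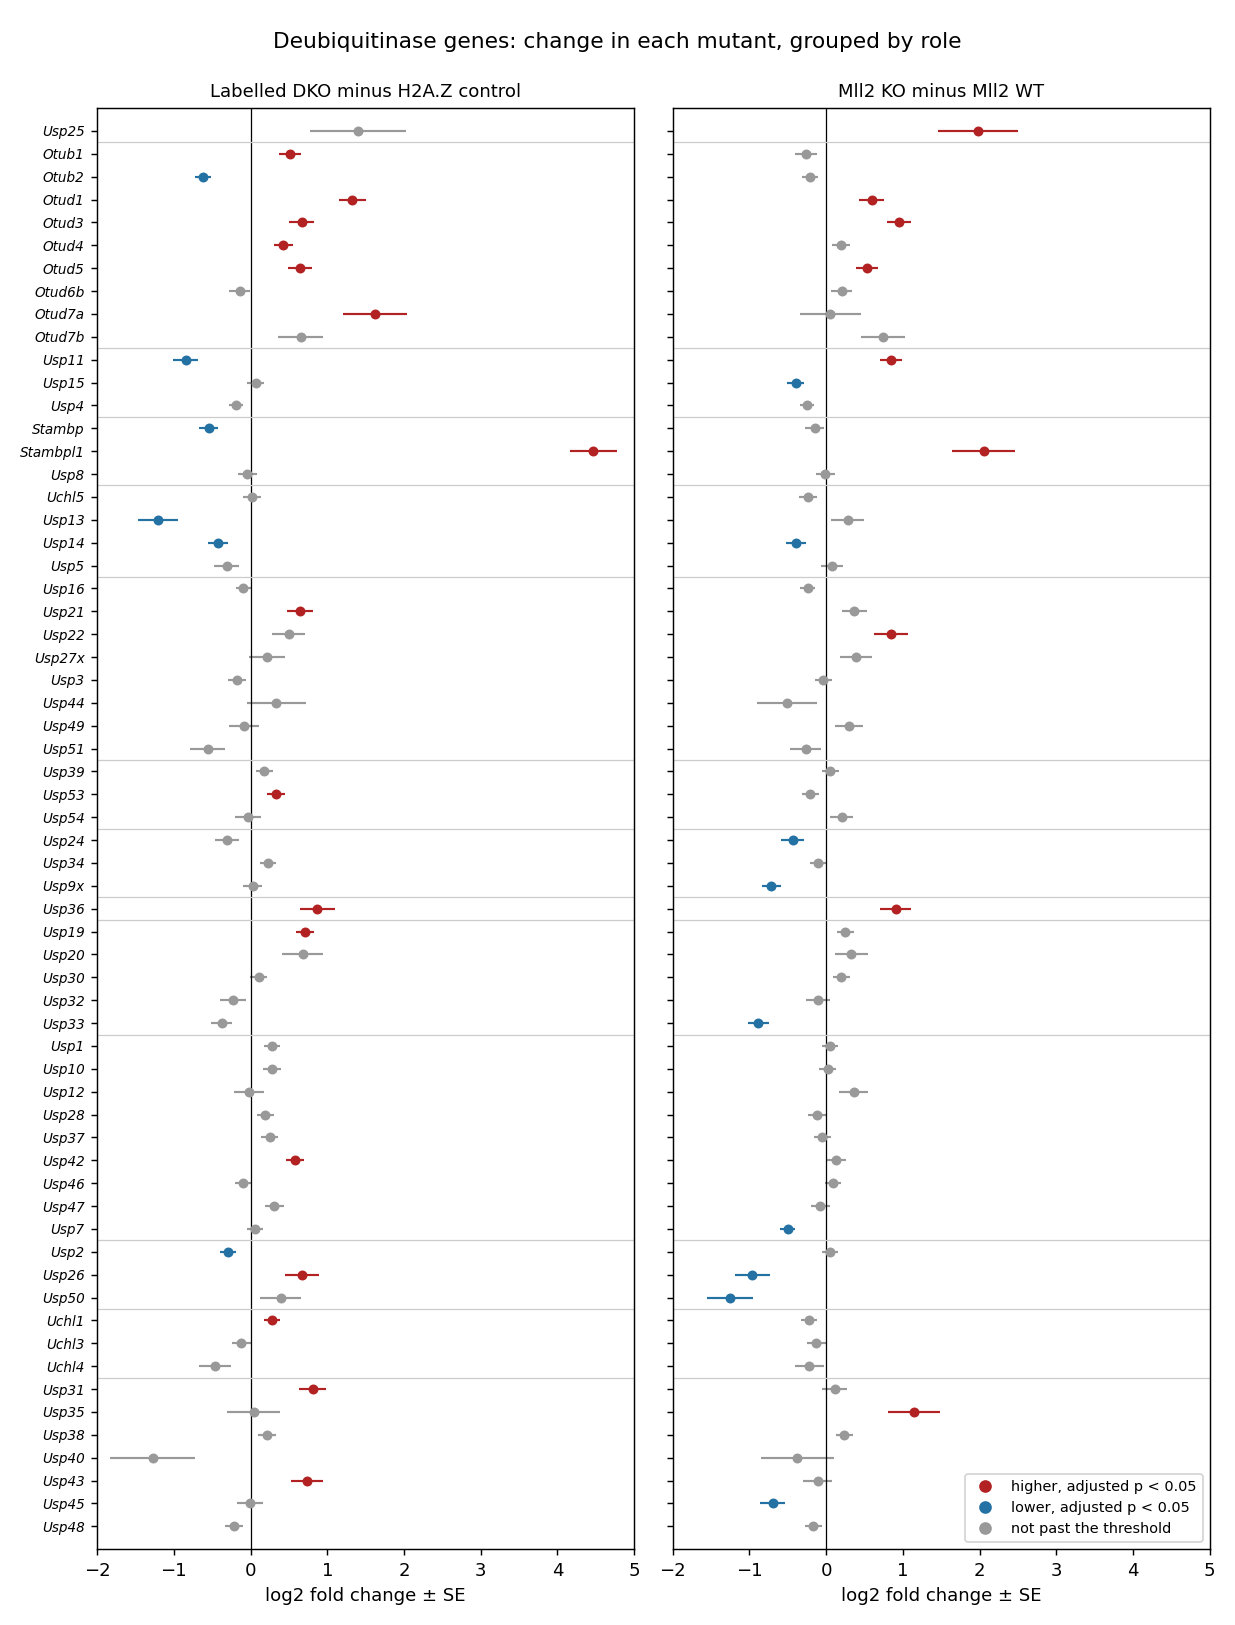
Log2 fold change (point) and its standard error (bar) of the 62 tested deubiquitinase genes in the labelled DKO against H2A.Z control (left) and in Mll2 KO against WT (right), with thin lines between role groups. Most points lie within 1 of 0, and Stambpl1 is the farthest to the right in both panels.

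Among the enzymes of the endosome, Stambpl1 rose in both lines, and its relative Stambp fell under the DKO label. STAMBPL1 and STAMBP are zinc metalloproteases of the JAMM class that trim ubiquitin chains on cargo at endosomes. Stambpl1 (chromosome 19, 34190378 to 34240333) had 21 and 18 counts in the H2A.Z controls and 515 and 349 under the DKO label, which is 22.8 and 16.6 CPM under the DKO label, against 1.09 and 0.717 CPM in its controls. It rose 22.2-fold (log2 4.47 ± 0.30, adjusted p = 1.43e-07), the largest change of any deubiquitinase gene tested here in either line. In the Mll2 line it had 6 and 11 counts in WT and 39 and 31 in KO (1.31 and 1.04 CPM in Mll2 KO, against 0.198 and 0.363 CPM in WT), a 4.14-fold rise (log2 2.05 ± 0.41, adjusted p = 0.00149). In both lines the mutant libraries lay above their controls without overlap. The increase was larger in the H2A.Z line (log2 2.42 ± 0.57, adjusted p = 0.00778 for the difference). That difference was no longer past the threshold without Mll2 WT 2 (adjusted p = 0.166).

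Stambp (chromosome 6, 83543206 to 83575826) went the other way under the DKO label. It measured 52 and 63.5 CPM under the DKO label, against 88 and 80.8 CPM in its controls (log2 -0.55 ± 0.12, adjusted p = 0.00335), and both labelled libraries lay below both controls. Stambp no longer passed there without H2A.Z control 1 or DKO 1 (adjusted p = 0.0531 and 0.0829). In Mll2 KO it measured 59.6 and 54 CPM against 62.2 and 63.9 CPM and did not pass the test (log2 -0.15 ± 0.12, adjusted p = 0.369). Usp8, which also serves endosomal sorting, measured 49 and 45.3 CPM in the H2A.Z controls, 50.2 and 41.2 CPM under the DKO label, 80.6 and 82.2 CPM in the Mll2 WT libraries, with 76.6 and 85.1 CPM in the KO (log2 -0.043 ± 0.12 and -0.0098 ± 0.12, adjusted p = 0.823 and 0.959).

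The Otub and Otud genes of the OTU class were the group with most members called higher under the DKO label. Genes of this class outside the symbol rule, among them Zranb1 and Otulin given below, are not in this count. Of its 9 tested genes 6 were higher and 1 lower there, beside 19.4% and 11.5% of all genes, with a median log2 difference of 0.64 beside 0.12 for all genes. In Mll2 KO 3 rose and 0 fell, beside 14.4% and 16.2% of all genes, with a median of 0.21 beside 0.017, and 4 of the 9 had an unadjusted p under 0.05. Otud1, Otud3 and Otud5 rose in both lines.

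Otud1 (chromosome 2, 19657731 to 19661279), a protease specific for certain ubiquitin chains, measured 20.4 and 19.6 CPM under the DKO label, against 7.60 and 8.32 CPM in its controls (log2 1.33 ± 0.17, adjusted p = 5.32e-05). Otud1 measured 17.8 and 23 CPM in Mll2 KO, against 13.5 and 13.5 CPM in WT (log2 0.59 ± 0.17, adjusted p = 0.0132). Otud1 no longer passed there without Mll2 WT 1, Mll2 WT 2 or Mll2 KO 2 (adjusted p = 0.08, 0.109 and 0.111). The 8 libraries fall into low controls and higher mutants in each line, without overlap. Otud3 (chromosome 4, 138891063 to 138914026), a member of the same class, measured 26 and 26.9 CPM under the DKO label, against 15.5 and 17.8 CPM in its controls (log2 0.67 ± 0.17, adjusted p = 0.00706). Otud3 no longer passed there without H2A.Z control 1 or DKO 2 (adjusted p = 0.0825 and 0.0516). Otud3 measured 44.5 and 64 CPM in Mll2 KO, against 28.2 and 27.9 CPM in WT (log2 0.95 ± 0.16, adjusted p = 0.000377), and KO 2 stood well above KO 1. Without KO 2 the log2 difference was 0.62 and the call held.

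Otud5 (chromosome X, 7839613 to 7876626), an X-linked gene whose product has roles in innate immune signalling and development, measured 44 and 39.2 CPM under the DKO label, against 24.2 and 29 CPM in its controls (log2 0.64 ± 0.15, adjusted p = 0.00506). Otud5 no longer passed there without H2A.Z control 1 or DKO 1 (adjusted p = 0.0763 and 0.0634). Otud5 measured 95.1 and 133 CPM in Mll2 KO, against 80.7 and 77.2 CPM in WT (log2 0.53 ± 0.15, adjusted p = 0.0116). Otud5 no longer passed there without Mll2 WT 1, Mll2 WT 2 or Mll2 KO 2 (adjusted p = 0.0535, 0.116 and 0.153). All mutant libraries lay above their controls, and KO 2 was the higher of the KO pair.

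Of the other Otub and Otud genes, Otub1, Otud4 and Otud7a were called higher and Otub2 lower under the DKO label. None of these other 6 was called in Mll2 KO. Otub1, whose product restrains conjugating enzymes as well as cutting chains, measured 99.1 and 109.6 CPM under the DKO label, against 75.7 and 70.4 CPM in its controls (log2 0.52 ± 0.14, adjusted p = 0.0135). Otub1 no longer passed there without H2A.Z control 1, H2A.Z control 2, DKO 2 or Mll2 WT 2 (adjusted p = 0.0574, 0.119, 0.119 and 0.0535) and with scaling within each line (adjusted p = 0.0527). In Mll2 KO it measured 92.8 and 66.3 CPM against 86.9 and 104 CPM, with overlap between the groups (log2 -0.27 ± 0.14, adjusted p = 0.173). Its relative Otub2 (chromosome 12, 103376894 to 103406350) fell there. It measured 63.3 and 64.6 CPM under the DKO label, against 102 and 94.5 CPM in its controls (log2 -0.62 ± 0.11, adjusted p = 0.000476), with both labelled libraries below both controls. Otub2 measured 92.4 and 87.1 CPM in Mll2 KO, against 107 and 100.3 CPM in WT (log2 -0.21 ± 0.10, adjusted p = 0.145). Otub1 and Otub2 thus went in opposite directions under the DKO label.

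Otud7a rose from a very low level, 12 and 14 counts to 36 and 43 (1.60 and 2.04 CPM under the DKO label, against 0.620 and 0.558 CPM in its controls; log2 1.62 ± 0.42, adjusted p = 0.00872). Otud7a no longer passed there without H2A.Z control 1, H2A.Z control 2 or DKO 2 (adjusted p = 0.0508, 0.0797 and 0.0674). Otud7a measured 0.842 and 1.04 CPM in Mll2 KO, against 0.826 and 0.989 CPM in WT, with overlap (log2 0.054 ± 0.40, adjusted p = 0.93). Otud4 rose by 0.43 on the log2 scale under the DKO label (adjusted p = 0.0137). Otud4 no longer passed there without H2A.Z control 1, H2A.Z control 2, DKO 1 or Mll2 WT 2 (adjusted p = 0.0573, 0.124, 0.157 and 0.112), with library size alone (adjusted p = 0.0815) and with scaling within each line (adjusted p = 0.0645). Otud6b and Otud7b did not pass the test in either line (log2 -0.14 and 0.65 under the DKO label). In Mll2 KO Otud7b missed the threshold (log2 0.74, adjusted p = 0.0628), with both KO libraries above both WT libraries, and passed in 3 alternatives.

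Of 8 members grouped as histone deubiquitinases 1 was higher and 0 lower in each line, beside 19.4% and 11.5% of all genes under the DKO label and 14.4% and 16.2% in Mll2 KO (median log2 0.065 under the DKO label and 0.13 in Mll2 KO, beside 0.12 and 0.017 for all genes). Each member was placed in a single group, so enzymes that also act on histones may be counted elsewhere. Bap1, outside the symbol rule and given below, is not in this count. Usp21, which acts on histone H2A, measured 23.9 and 19.4 CPM under the DKO label, against 13.2 and 14.5 CPM in its controls (log2 0.65 ± 0.17, adjusted p = 0.00947). Usp21 no longer passed there without H2A.Z control 1, DKO 1 or Mll2 WT 2 (adjusted p = 0.0859, 0.124 and 0.0537). In Mll2 KO it measured 40.4 and 55 CPM against 35.1 and 39 CPM (log2 0.37 ± 0.16, adjusted p = 0.092). Usp22, the enzyme of the SAGA coactivator complex, measured 7.55 and 9.74 CPM in Mll2 KO, against 5.75 and 3.86 CPM in WT (log2 0.85 ± 0.22, adjusted p = 0.00893). Usp22 no longer passed there without Mll2 WT 2 or Mll2 KO 2 (adjusted p = 0.168 and 0.0528). Under the DKO label Usp22 measured 12.3 and 13 CPM against 8.37 and 9.52 CPM and missed the threshold (log2 0.50 ± 0.22, adjusted p = 0.0939).

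Usp16 (chromosome 16, 87454985 to 87483515), the most abundant of this group, measured 304 and 281 CPM in the H2A.Z controls, 273 and 275 CPM under the DKO label, 289 and 284 CPM in the Mll2 WT libraries, with 256 and 229 CPM in the KO (log2 -0.10 ± 0.10 and -0.24 ± 0.10, adjusted p = 0.504 and 0.0797). Usp3, another H2A deubiquitinase gene, measured 193 and 175 CPM in the H2A.Z controls, 178 and 149 CPM under the DKO label, 232 and 203 CPM in the Mll2 WT libraries, with 217 and 206 CPM in the KO (log2 -0.17 ± 0.11 and -0.038 ± 0.11, adjusted p = 0.261 and 0.821). For both, the differences from controls were small beside those of Stambpl1 or Otud1. Usp27x, Usp44, Usp49 and Usp51 did not pass in either line.

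Usp11 and Usp26, both X-linked, changed in opposite directions in the H2A.Z and Mll2 lines. Usp11, of a trio of paralogues with Usp4 and Usp15 and known for roles in DNA repair, measured 9.22 and 8.78 CPM under the DKO label, against 14.6 and 17.6 CPM in its controls (log2 -0.84 ± 0.16, adjusted p = 0.0012). Usp11 measured 44.5 and 45.5 CPM in Mll2 KO, against 27.5 and 22.6 CPM in WT (log2 0.85 ± 0.15, adjusted p = 0.000582). The groups do not overlap in either line, and the difference between the lines was -1.69 on the log2 scale (adjusted p = 8.1e-05). Both changes and their difference passed the test in every alternative that gave a value for them.

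Usp26 (chromosome X, 51752667 to 51801233), best known from the testis, went the reverse way. It measured 8.51 and 11.7 CPM under the DKO label, against 5.58 and 7.09 CPM in its controls (log2 0.67 ± 0.22, adjusted p = 0.032). Usp26 no longer passed there without H2A.Z control 1, H2A.Z control 2, DKO 2 or Mll2 WT 2 (adjusted p = 0.233, 0.0652, 0.296 and 0.12), with library size alone (adjusted p = 0.0922), with scaling within each line (adjusted p = 0.0836) and with DESeq2 (adjusted p = 0.0572). In the Mll2 line it fell, at 3.20 and 3.73 CPM in Mll2 KO, against 6.54 and 6.99 CPM in WT (log2 -0.96 ± 0.23, adjusted p = 0.005). The difference between the lines (log2 1.63 ± 0.32, adjusted p = 0.00224) held in every alternative that tested the gene, and so did the fall in Mll2 KO. Of the other X-linked members, Usp27x and Usp51 did not pass in either line.

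Usp4 and Usp15 are the paralogues of Usp11. Usp15 measured 392 and 357 CPM in Mll2 KO, against 469 and 517 CPM in WT (log2 -0.40 ± 0.11, adjusted p = 0.0136). Usp15 no longer passed there without Mll2 WT 2 (adjusted p = 0.0877) and with the Mll2 line alone (adjusted p = 0.0581). Under the DKO label it was not past the threshold (log2 0.067 ± 0.11, adjusted p = 0.687). Usp4 measured 157 and 158 CPM in the H2A.Z controls, 135 and 141 CPM under the DKO label, 179.9 and 173 CPM in the Mll2 WT libraries, with 149.6 and 147 CPM in the KO (log2 -0.19 and -0.25, adjusted p = 0.149 and 0.0576).

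**Figure D3:**
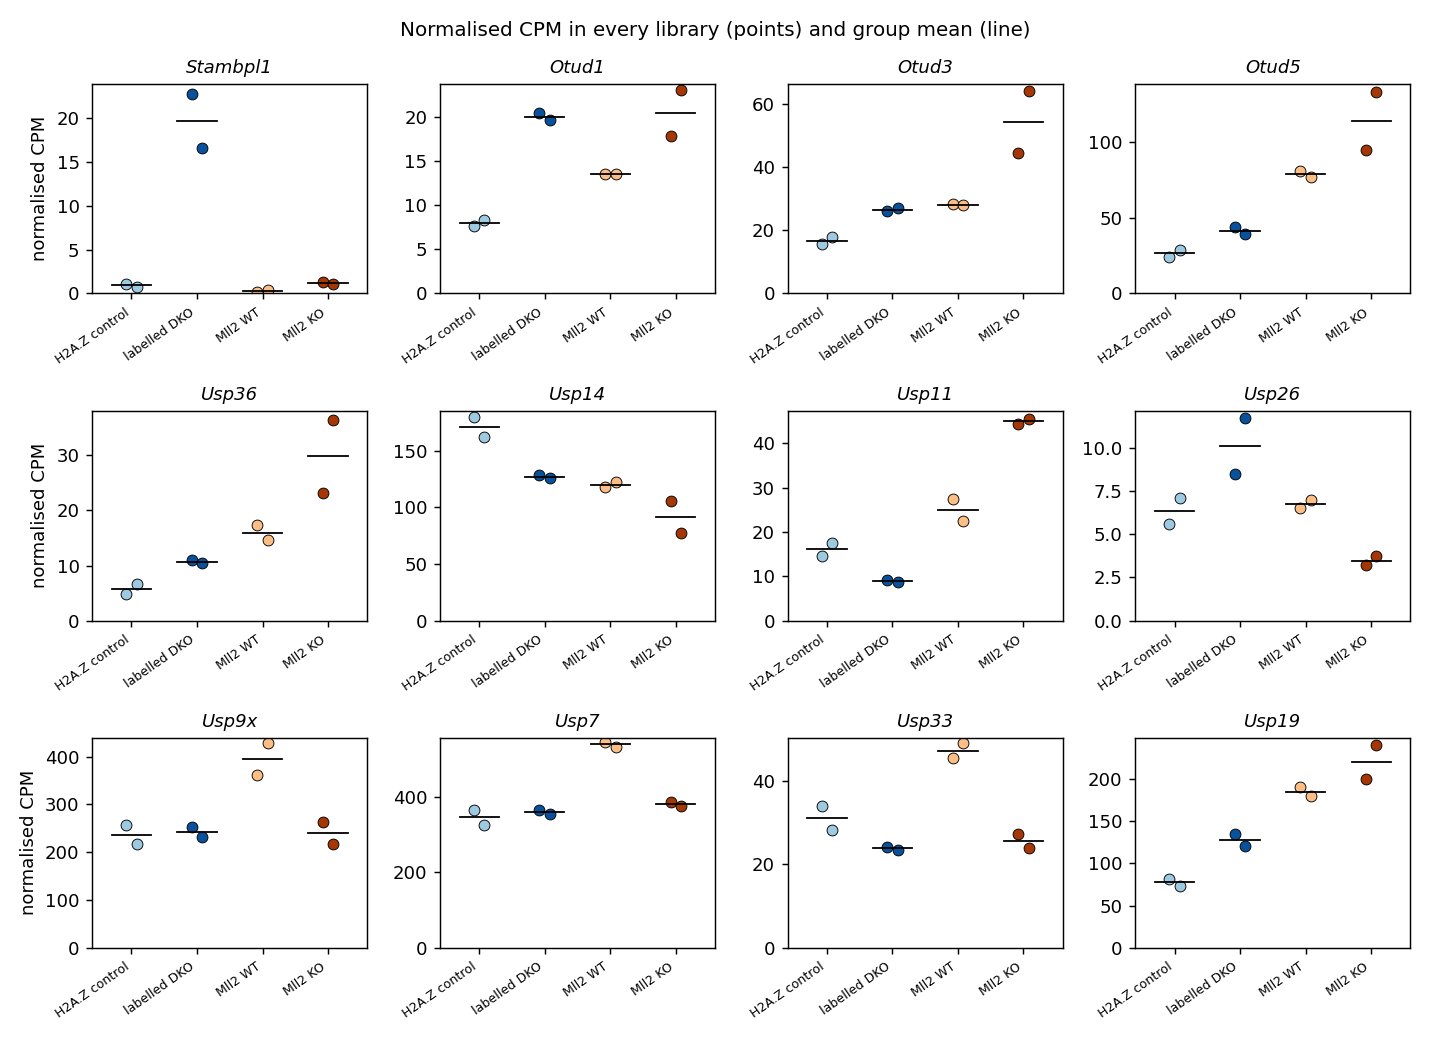
Normalised CPM of 12 deubiquitinase genes in each of the 8 libraries (points) with the mean of the 2 libraries of a group (line); each vertical axis starts at 0. Stambpl1, Otud1, Otud3, Otud5 and Usp36 are higher than their controls in both lines, Usp14 is lower in both, and Usp11 and Usp26 turn in opposite directions.

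Usp9x and Usp7, a pair of abundant enzymes with many known substrates, fell in Mll2 KO and did not pass the test under the DKO label. Usp9x (chromosome X, 13070982 to 13173328), a large X-linked enzyme with many substrates, measured 263 and 217 CPM in Mll2 KO, against 362 and 429 CPM in WT (log2 -0.72 ± 0.12, adjusted p = 0.000486). Under the DKO label it measured 252 and 232 CPM against 256 and 217 CPM (log2 0.03 ± 0.12, adjusted p = 0.878). The difference between the lines was 0.75 (adjusted p = 0.00734). That difference did not pass without H2A.Z control 2, DKO 1 or Mll2 WT 2 (adjusted p = 0.0627, 0.0509 and 0.0843). Both Mll2 KO libraries were below both WT libraries.

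Usp7 (chromosome 16, 8688722 to 8757067) measured 385 and 376 CPM in Mll2 KO, against 545 and 533 CPM in WT (log2 -0.50 ± 0.10, adjusted p = 0.00142), and 366 and 353 CPM against 366 and 326 CPM in the H2A.Z line (log2 0.057 ± 0.10, adjusted p = 0.706). The difference between the lines (log2 0.56 ± 0.14, adjusted p = 0.0109) did not pass without H2A.Z control 2, DKO 1 or Mll2 WT 2 (adjusted p = 0.0911, 0.0652 and 0.0762) and with library size alone (adjusted p = 0.106). Usp33, whose product has been linked to the VHL ligase and to centrosomes, measured 27.2 and 23.9 CPM in Mll2 KO, against 45.3 and 48.9 CPM in WT (log2 -0.88 ± 0.14, adjusted p = 0.000203), the smallest adjusted p of any member in this line. Under the DKO label Usp33 measured 24.1 and 23.4 CPM against 33.8 and 28.1 CPM and just missed the threshold (log2 -0.38 ± 0.14, adjusted p = 0.0525). It passed there as lower in 10 of 17 alternatives. The difference of Usp33 between the lines was not past the threshold (log2 0.51 ± 0.20, adjusted p = 0.0831).

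Usp45, which has a role in DNA crosslink repair, measured 12.4 and 13.9 CPM in Mll2 KO, against 20.4 and 22.2 CPM in WT (log2 -0.70 ± 0.16, adjusted p = 0.00462). Usp45 no longer passed there without Mll2 WT 2 (adjusted p = 0.0547). Usp50, a member at low level, measured 0.943 and 0.907 CPM in Mll2 KO, against 1.98 and 2.44 CPM in WT (log2 -1.25 ± 0.30, adjusted p = 0.00492). Usp50 no longer passed there without Mll2 WT 2 (adjusted p = 0.0544). In the H2A.Z line these genes measured 14.2 and 14.6 CPM under the DKO label, against 16.2 and 12.9 CPM in its controls (log2 -0.011 ± 0.17, adjusted p = 0.969) and 4.52 and 4.22 CPM under the DKO label, against 3.36 and 3.31 CPM in its controls (log2 0.39 ± 0.26, adjusted p = 0.279). Usp24 fell by 1.36-fold in Mll2 KO (log2 -0.44 ± 0.15, adjusted p = 0.0367). Usp24 no longer passed there without H2A.Z control 1, H2A.Z control 2, Mll2 WT 1, Mll2 WT 2 or Mll2 KO 2 (adjusted p = 0.0579, 0.0567, 0.175, 0.103 and 0.0644), with library size alone (adjusted p = 0.126) and with the line alone (adjusted p = 0.0845), while Usp34 did not pass in either line.

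Among the enzymes that serve the proteasome, Usp14 fell in both lines, and Uchl5 did not pass the test in either. USP14 and UCHL5 bind the proteasome and cut chains from its substrates. Usp14 measured 129 and 126 CPM under the DKO label, against 180.0 and 162 CPM in its controls (log2 -0.43 ± 0.13, adjusted p = 0.02). Usp14 no longer passed there without H2A.Z control 1, H2A.Z control 2, DKO 1 or DKO 2 (adjusted p = 0.173, 0.0531, 0.106 and 0.124). Usp14 measured 106 and 77 CPM in Mll2 KO, against 118 and 122 CPM in WT (log2 -0.39 ± 0.13, adjusted p = 0.0297). Usp14 no longer passed there without DKO 1, DKO 2, Mll2 WT 1, Mll2 WT 2 or Mll2 KO 2 (adjusted p = 0.0508, 0.0508, 0.088, 0.105 and 0.0741), with library size alone (adjusted p = 0.0999) and with the line alone (adjusted p = 0.107). Without Mll2 KO 1 the log2 difference was -0.63. Every mutant library lay below its controls. An exon of Usp14 overlaps one of Thoc1 on the opposite strand over 2169 bases, and the sources used here do not say whether reads were counted by strand. The same holds for Usp16 with Cct8, Usp34 with Ahsa2, Stambp with Gm21284 and Usp45 with Tstd3, which share 192, 1977, 136 and 57 exon bases. Usp2, Usp30, Usp37, Usp40, Usp49 and Usp54 also share exon bases with genes on the opposite strand.

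Uchl5 measured 84.5 and 77.5 CPM in the H2A.Z controls, 82.1 and 81.8 CPM under the DKO label, 74.5 and 84.2 CPM in the Mll2 WT libraries, with 73.3 and 61.4 CPM in the KO (log2 0.017 ± 0.12 and -0.24 ± 0.12, adjusted p = 0.927 and 0.14). Usp13, related to Usp5, whose product takes apart free ubiquitin chains, measured 1.73 and 2.75 CPM under the DKO label, against 4.81 and 5.50 CPM in its controls (log2 -1.21 ± 0.26, adjusted p = 0.00248). Usp13 no longer passed there without DKO 1 (adjusted p = 0.0529). In Mll2 KO Usp13 measured 8.96 and 9.81 CPM against 8.46 and 7.02 CPM (log2 0.28 ± 0.22, adjusted p = 0.357), and the difference between the lines was -1.49 (adjusted p = 0.00623). That difference did not pass without DKO 1 (adjusted p = 0.0501). Usp5 itself did not pass in either line.

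Of the hydrolases 1 passed, narrowly. Uchl1 (chromosome 5, 66676121 to 66687234) measured 1773 and 1750 CPM in the H2A.Z controls, 2148 and 2143 CPM under the DKO label, 1690 and 1886 CPM in the Mll2 WT libraries, with 1557 and 1515 CPM in the KO. It was called higher under the DKO label (log2 0.28 ± 0.10, adjusted p = 0.048), a 1.22-fold change that stayed past the threshold in 3 of 17 alternatives and was lost without any single one of the 8 libraries (adjusted p = 0.0685 to 0.244). In Mll2 KO it was not called (log2 -0.22 ± 0.10, adjusted p = 0.122). Uchl1os, on the opposite strand and sharing 232 exon bases with Uchl1, had 23 to 204 counts per library. Uchl3 measured 259 and 251 CPM in the H2A.Z controls, 213 and 254 CPM under the DKO label, 146 and 175 CPM in the Mll2 WT libraries, with 159.7 and 134 CPM in the KO (log2 -0.12 ± 0.12 and -0.13 ± 0.12, adjusted p = 0.48 and 0.45). Uchl4, a copy of Uchl3 whose reads may be shared with it, did not pass in either line.

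Of 9 genes grouped by roles around p53, DNA repair and the cell cycle, 1 rose under the DKO label (19.4% of all genes did) and 1, Usp7, fell in Mll2 KO (16.2% of all genes did). Usp11 and Usp45, which also have roles in DNA repair, were placed in other groups and are not in this count. Usp42, known for acting on p53, measured 94.5 and 77.5 CPM under the DKO label, against 57.1 and 57.9 CPM in its controls (log2 0.58 ± 0.12, adjusted p = 0.00204). Usp42 no longer passed there without DKO 1 (adjusted p = 0.057). It measured 65.9 and 66 CPM against 63.6 and 56.7 CPM in the Mll2 line (log2 0.13 ± 0.12, adjusted p = 0.425). Usp1, which with WDR48 acts in DNA crosslink repair, measured 82.2 and 71 CPM in the H2A.Z controls, 93.7 and 92.3 CPM under the DKO label, 153 and 149 CPM in the Mll2 WT libraries, with 149 and 163 CPM in the KO (log2 0.28 ± 0.11 and 0.048 ± 0.11, adjusted p = 0.0579 and 0.76). Usp46, the most abundant of the group, measured 479.7 and 441 CPM in the H2A.Z controls, 433 and 427 CPM under the DKO label, 566 and 498 CPM in the Mll2 WT libraries, with 541 and 592 CPM in the KO (log2 -0.10 and 0.09, adjusted p = 0.511 and 0.547). Usp10, Usp12, Usp28, Usp37 and Usp47 did not pass in either line.

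Of the remaining members, Usp36 rose in both lines. Usp36 (chromosome 11, 118259651 to 118290260), whose product works in the nucleolus, measured 10.9 and 10.5 CPM under the DKO label, against 4.91 and 6.73 CPM in its controls (log2 0.87 ± 0.23, adjusted p = 0.00965). Usp36 no longer passed there without H2A.Z control 1 or DKO 1 (adjusted p = 0.114 and 0.0629). Usp36 measured 23.2 and 36.5 CPM in Mll2 KO, against 17.3 and 14.6 CPM in WT (log2 0.90 ± 0.21, adjusted p = 0.00395). Usp36 no longer passed there without Mll2 WT 2 (adjusted p = 0.0744). Without Mll2 KO 2 the log2 difference in that line was 0.50. The mutant libraries lay above their controls in each line, with KO 2 the highest of all 8.

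Usp19, which has a form anchored in the endoplasmic reticulum, measured 135 and 120.2 CPM under the DKO label, against 82.1 and 73.5 CPM in its controls (log2 0.71 ± 0.12, adjusted p = 0.00032) and held in every alternative. Usp19 measured 201 and 241 CPM in Mll2 KO, against 190.2 and 180.4 CPM in WT (log2 0.25 ± 0.11, adjusted p = 0.104). Usp31 measured 23.9 and 22.9 CPM under the DKO label, against 13.5 and 13.2 CPM in its controls (log2 0.81 ± 0.17, adjusted p = 0.00263), also in every alternative, and 26 and 36.2 CPM against 31.7 and 25.9 CPM in the Mll2 line, with overlap (log2 0.11 ± 0.16, adjusted p = 0.638). Usp43 measured 10.4 and 8.87 CPM under the DKO label, against 6.36 and 5.22 CPM in its controls (log2 0.74 ± 0.21, adjusted p = 0.0129). Usp43 no longer passed there without H2A.Z control 2, DKO 1 or Mll2 WT 2 (adjusted p = 0.145, 0.113 and 0.0536).

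Usp25, known for roles in innate immune signalling, measured 1.28 and 1.48 CPM in Mll2 KO, against 0.496 and 0.198 CPM in WT (log2 1.98 ± 0.52, adjusted p = 0.00988). Usp25 no longer passed there without Mll2 WT 2 (adjusted p = 0.12). These are 15 and 6 counts in WT and 38 and 44 in KO, so the fold is imprecise. The H2A.Z controls held 5 and 6 counts. Usp25 may thus have passed the filter only through the mutant groups where it is high, and its call is not independent of that filter. Usp35 rose by 1.15 in Mll2 KO (adjusted p = 0.0179). Usp35 no longer passed there without Mll2 WT 2 or Mll2 KO 2 (adjusted p = 0.21 and 0.141) and with the line alone (adjusted p = 0.05). Usp53 and Usp2 were called by narrow margins under the DKO label (log2 0.33 and -0.29, adjusted p = 0.0376 and 0.0469). Usp53 stayed past the threshold in 2 of 17 alternatives and was lost without any single one of the 8 libraries (adjusted p = 0.0524 to 0.337). Usp2 no longer passed there without H2A.Z control 1, H2A.Z control 2, DKO 1, DKO 2 or Mll2 WT 1 (adjusted p = 0.168, 0.201, 0.24, 0.152 and 0.0702). Usp20, Usp30, Usp32, Usp38, Usp39, Usp40, Usp48 and Usp54 did not pass in either line. Across the 30 members called in neither line, log2 differences ran from -1.28 (Usp40) to 0.68 (Usp20) under the DKO label. They ran from -0.51 (Usp44) to 0.74 (Otud7b) in Mll2 KO.

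Which members missed the threshold depended on which libraries entered the fit, and the median log2 difference of all genes moved in the fits below. Under the DKO label that median was 0.12 with all 8 libraries and 0.0056 from this line by itself. It was 0.0037, 0.0032, 0.0021 and 0.0032 without Mll2 KO 1, Mll2 KO 2, both KO libraries and Mll2 WT 2. Scaling within each line gave 0.0039, with 10 members lower. In Mll2 KO the median was 0.0043 without KO 1 and -0.0399 without KO 2, beside 0.017. With the H2A.Z line fitted alone, 13 further members passed as lower under the DKO label, namely Otud6b, Uchl3, Uchl4, Usp3, Usp4, Usp5, Usp16, Usp24, Usp33, Usp40, Usp46, Usp48 and Usp51 (adjusted p = 0.000705 for Usp33 to 0.0466 for Otud6b). The 12 other than Otud6b did so without Mll2 KO 1 (adjusted p = 0.00128 to 0.0455) and without Mll2 KO 2 (0.00124 to 0.046). Without Mll2 WT 2, Usp4, Usp33, Usp40 and Usp51 passed as lower there (0.0412, 0.0268, 0.03 and 0.0463). Without Mll2 KO 1, Otud4, Otud7b, Usp19, Usp20, Usp21, Usp27x, Usp30 and Usp38 passed as higher in Mll2 KO (0.00148 to 0.0392). In the same fit Otub1, Uchl5, Usp4 and Usp16 passed as lower (0.000943, 0.00967, 0.0269 and 0.00605). Without Mll2 KO 2, Usp4 and Usp28 did (0.0224 and 0.042).

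Across both lines, 8 members were called in each (12.9% of the 62, beside 12.6% of all tested genes), which is 36.4% of those called under the DKO label and 44.4% of those called in Mll2 KO. Higher in both were Stambpl1, Otud1, Otud3, Otud5 and Usp36 (5 genes; 5.86% of all tested genes were so). Usp14 was the 1 gene lower in both (all genes 4.39%). Usp11 and Usp26 were the 2 called in opposite directions (all genes 2.37%). The change differed between the lines for 14 members by a direct test, 12 with a more positive change under the DKO label (12.9% of all genes were so) and 2 with a more negative one (6.68%). That split depended on scaling, as given below. Apart from the 8 called in both lines, 14 were called in the H2A.Z line alone, 10 in the Mll2 line alone and 30 in neither. The 14 with a difference by the direct test lie among the members called in 1 or both lines. Being called in one line and not the other is not itself a test of a difference. Across the 62 genes the log2 differences of both lines had a Pearson r of 0.527 (Spearman rho 0.374), or 0.339 without Stambpl1, beside 0.341 over all 16847 genes. Genes are not independent replicates, the points share their libraries and their fit, and no p is given.

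**Figure D4:**
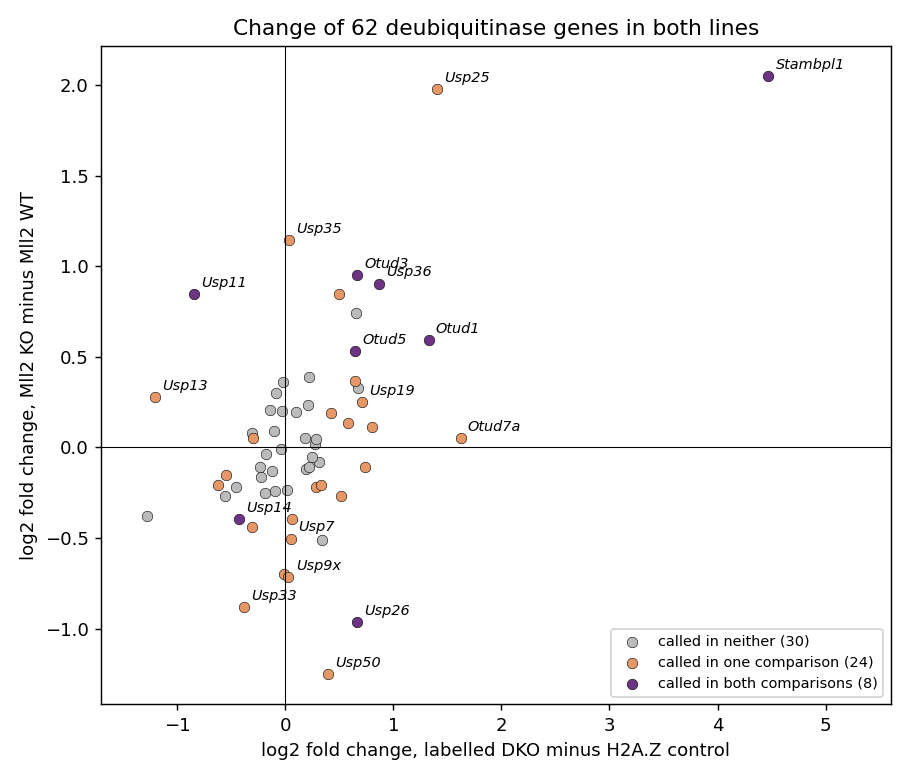
Log2 fold change in Mll2 KO against log2 fold change under the DKO label for the 62 tested deubiquitinase genes, coloured by the number of comparisons in which a gene was called. Stambpl1 lies alone at the upper right, Usp11 at the upper left and Usp26 at the lower right.

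MLL2 and H2A.Z are both known from promoters rich in CpG, and sequence before a start of 7 of the 8 genes called in both lines is shown so that their CpG content can be compared. Usp14 is not shown. The 250 bases before the start listed first for each gene in a RefSeq table (GRCm38.p6, the assembly of mm10) follow, 5′ to 3′ on the gene's strand, with each CpG in capitals. Stambpl1 has 4 starts and Otud5 has 2 starts in that table. The start listed first need not be the outermost: the windows of Stambpl1 and Otud5 lie inside the gene spans given above, and those of Otud3 and Usp36 reach into them. The first 5 genes rose in both lines, and the last pair moved in opposite directions.
Stambpl1 (chr19:34191979-34192228, + strand): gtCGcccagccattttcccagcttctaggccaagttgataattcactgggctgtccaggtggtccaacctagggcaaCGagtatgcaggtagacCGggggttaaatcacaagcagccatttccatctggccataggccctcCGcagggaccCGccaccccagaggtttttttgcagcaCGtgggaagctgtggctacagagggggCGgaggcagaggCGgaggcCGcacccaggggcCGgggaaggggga
Otud1 (chr2:19657481-19657730, + strand): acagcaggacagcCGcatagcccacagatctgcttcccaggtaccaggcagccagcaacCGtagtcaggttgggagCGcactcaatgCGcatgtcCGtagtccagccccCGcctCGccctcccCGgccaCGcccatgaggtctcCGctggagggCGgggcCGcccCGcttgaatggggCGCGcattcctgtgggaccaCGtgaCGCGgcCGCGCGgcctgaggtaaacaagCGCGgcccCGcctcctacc
Otud3 (chr4:138913969-138914218, - strand): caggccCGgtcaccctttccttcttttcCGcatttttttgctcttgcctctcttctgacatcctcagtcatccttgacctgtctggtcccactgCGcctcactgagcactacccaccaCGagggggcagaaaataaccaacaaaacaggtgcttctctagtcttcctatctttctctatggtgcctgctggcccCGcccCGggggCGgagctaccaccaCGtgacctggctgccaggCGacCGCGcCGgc
Otud5 (chrX:7841581-7841830, + strand): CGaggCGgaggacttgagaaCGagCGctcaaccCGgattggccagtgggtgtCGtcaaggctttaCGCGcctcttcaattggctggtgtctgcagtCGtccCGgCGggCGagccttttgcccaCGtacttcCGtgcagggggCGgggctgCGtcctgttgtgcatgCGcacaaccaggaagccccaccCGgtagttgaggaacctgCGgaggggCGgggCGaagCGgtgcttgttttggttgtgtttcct
Usp36 (chr11:118290245-118290494, - strand): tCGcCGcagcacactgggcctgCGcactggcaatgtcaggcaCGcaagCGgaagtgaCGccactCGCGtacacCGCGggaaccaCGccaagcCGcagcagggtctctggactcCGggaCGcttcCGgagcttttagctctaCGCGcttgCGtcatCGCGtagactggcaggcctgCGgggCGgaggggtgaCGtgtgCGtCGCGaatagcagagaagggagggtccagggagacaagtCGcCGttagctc
Usp11 (chrX:20703659-20703908, + strand): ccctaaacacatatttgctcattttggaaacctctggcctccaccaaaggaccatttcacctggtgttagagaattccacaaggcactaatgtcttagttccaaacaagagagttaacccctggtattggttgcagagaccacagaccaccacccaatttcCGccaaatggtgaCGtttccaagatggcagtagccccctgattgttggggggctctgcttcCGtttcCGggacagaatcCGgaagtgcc
Usp26 (chrX:51801234-51801483, - strand): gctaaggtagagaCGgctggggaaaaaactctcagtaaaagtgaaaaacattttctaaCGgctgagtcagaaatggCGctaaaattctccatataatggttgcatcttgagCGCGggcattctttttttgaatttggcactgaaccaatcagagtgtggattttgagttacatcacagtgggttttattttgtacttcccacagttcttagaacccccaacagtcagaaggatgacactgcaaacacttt

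These windows hold 10, 24, 12, 22 and 28 CpG in Stambpl1, Otud1, Otud3, Otud5 and Usp36, and 5 each in Usp11 and Usp26. The median was 22 CpG over the 50 members with a window in the table and 6 over all 27025 windows. The members called higher, lower and not called under the DKO label had medians of 13 (n = 13), 9 (n = 5) and 24 (n = 31), and those of Mll2 KO 23 (n = 8), 21 (n = 6) and 22 (n = 35). Over all tested genes with a window the medians were 15, 12 and 13 under the DKO label and 15, 12 and 13 in Mll2 KO. The members had more CpG in these windows than all windows at the median, and in Mll2 KO the medians of called and uncalled members lay within 2 CpG of each other. Under the DKO label the medians of called members, 13 and 9, lay below the 24 of uncalled members. That difference rests on 13 and 5 called windows and was not tested.

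Motifs were searched on both strands in the same windows, with CACGTG added after the sequences had been seen. The GC box GGGCGG was found in 34 of 50 member windows (68%) and in 32.9% of all windows, among them Stambpl1, Otud1, Otud3, Otud5 and Usp36. CCAAT was found in 11 (22%, beside 34.5% of all), among them Otud5, Usp11 and Usp26, and TATAAA in 2 (4%, beside 13%). The E-box CACGTG was found in 6 (12%, beside 6.05%): Otud1, Otud3, Stambpl1, Usp16, Usp31 and Usp4. All windows include those of genes not tested here, and no motif share over tested genes alone was taken. A match is a run of letters and was not tested as a binding site.

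Ubb, a polyubiquitin gene, measured 2575 and 2270 CPM in the H2A.Z controls, 2026 and 2010 CPM under the DKO label, 1511 and 1632 CPM in the Mll2 WT libraries, with 900.0 and 713 CPM in the KO. It fell in Mll2 KO (log2 -0.96 ± 0.12, adjusted p = 3.26e-05), where both KO libraries lay below both WT libraries. Under the DKO label it did not pass the test (log2 -0.26 ± 0.12, adjusted p = 0.114).

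Of 32 tested genes of ubiquitin activation and conjugation, 8 were higher and 2 lower under the DKO label (all genes 19.4% and 11.5%), with a median log2 difference of 0.12 (all genes 0.12). In Mll2 KO 2 rose and 11 fell (all genes 14.4% and 16.2%), with a median of -0.067 (all genes 0.017). Ube2e3, a conjugating enzyme gene, fell in Mll2 KO (log2 -1.07 ± 0.15, adjusted p = 5.96e-05), as did Ube2u (log2 -1.02 ± 0.17, adjusted p = 0.000332), while Ube2r2 fell in both lines (log2 -1.69 and -1.18, adjusted p = 0.00174 and 0.00814). Of 16 genes of histone H2A and H2B ubiquitin ligases, the DKO label had 3 higher and 0 lower, and Mll2 KO 1 higher and 5 lower (medians 0.21 and -0.058), beside the same shares of all genes. Rnf8, a ligase of the DNA damage response, rose in both (log2 0.84 ± 0.14, adjusted p = 0.000434, and log2 0.39 ± 0.14, adjusted p = 0.0421), and Rnf168, which acts after it, fell in Mll2 KO (log2 -0.77 ± 0.11, adjusted p = 6.94e-05).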

How the data were processed

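Polyadenylated RNA from pools of about 20 full-grown oocytes was made into libraries from 200 pg of amplified cDNA, per the labels' protocols. The authors deposited whole-number raw counts per gene symbol for 8 libraries. The submitters' processing notes name build mm10 and the tools RSEM 1.3.1, STAR 2.7.3 and Trim Galore 0.6.4. The sources used here do not give their roles, the annotation, the strand setting or any rounding.

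All 8 libraries entered one fit of 4 group means in R 4.3.3 with edgeR 4.0.16 (filterByExpr, trimmed mean of M-values scaling, robust quasi-likelihood test, 4 residual degrees of freedom). Benjamini-Hochberg adjusted p-values were taken over all 16847 genes, with a threshold of 0.05. The SE was derived from the F statistic. The script was tested on simulated data. Alternatives were other scalings, filters, DESeq2 1.42.0, each line alone, each library left out and a replicate block. Members, lists and the rule for named genes were chosen with earlier results of these data known. The rule took the targeted genes, the 12 smallest adjusted p of each line, genes called in both, the 6 largest differences between lines, the 5 highest levels per kb, 15 genes by role, and up to 4 called genes of each list. Some genes of one list are not reported here. Sequences and positions came from RefSeq on GRCm38.p6 and lengths from GENCODE M21.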

Additional observations from a re-analysis of the deposited data

Results flagged for a closer look

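For 14 deubiquitinase genes (22.6% of the 62 tested, beside 19.5% of all tested genes) the change under the DKO label differed from the change in Mll2 KO by a direct test of the difference in edgeR. The values below are the log2 change under the DKO label minus that in Mll2 KO, and 12 of the 14 were positive (85.7%, beside 65.8% of such calls over all genes). This split depended on scaling. With library size alone, 8 of the 12 no longer passed, and Otub2, Otud6b, Stambp and Usp2 passed with negative values. With scaling within each line, 6 of the 12 no longer passed, and Otub2, Stambp and Usp2 passed with negative values. Usp11 had -1.69 (adjusted p = 8.1e-05) and Usp26 1.63 (adjusted p = 0.00224), the pair whose own changes pointed in opposite directions. Stambpl1 had 2.42 (adjusted p = 0.00778), with a rise in both lines. Usp50 had 1.64 and Usp13 -1.49 (adjusted p = 0.00873 and 0.00623). Usp9x had 0.75, Usp7 0.56 and Usp45 0.69 (adjusted p = 0.00734, 0.0109 and 0.0499), each lower in Mll2 KO. Usp15 had 0.46 (adjusted p = 0.0493). Otub1 had 0.78, Otud1 0.74 and Usp43 0.85 (adjusted p = 0.0134, 0.0414 and 0.0437), each higher under the DKO label. Uchl1 had 0.50 and Usp53 0.54 (adjusted p = 0.0246 and 0.0274). Of the 14, Usp11 and Usp26 passed in every alternative that tested them, and Otud1, Usp15, Usp43 and Usp45 in 4 or fewer of 15. Without Mll2 WT 2, 3 of the 62 genes passed this test.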

How the results depend on the processing

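Of the calls reported, 6 of 22 under the DKO label (4 higher, 2 lower), 7 of 18 in Mll2 KO (3 higher, 4 lower) and 2 of 14 for the difference between the lines passed in every alternative, and no called gene changed sign in any. With library size alone, 10 members were lower under the DKO label and 14 higher in Mll2 KO. With the H2A.Z line fitted alone 19 were lower under the DKO label, 21 of the 22 calls were kept, and the spread was no longer shared with Mll2 KO. Of the alternatives chosen after seeing the data, scaling within each line gave 10 lower and the fit without both Mll2 KO libraries 18 lower under the DKO label. Leaving out 1 library at a time gave 6 to 14 higher and 2 to 18 lower under the DKO label, 3 to 17 higher and 4 to 13 lower in Mll2 KO, and 3 to 20 differences between the lines. A lone library was then assumed to vary like the other groups. The replicate block gave 14 higher and 6 lower, 9 and 9, and 10 differences. The numbers were not treated as pairs, since same-numbered libraries deviated together by only r = 0.0395 and -0.0221 across genes. DESeq2 gave 13 and 7, 9 and 9, and 11. Depth limits Usp25, Otud7a and Stambpl1 in the Mll2 line, which rest on 6 to 44 counts per library.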

Other observations

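A further list held deubiquitinases outside the symbol rule and related genes. Among these were the Senp and Uspl1 proteases, which act on SUMO or NEDD8, and subunits of other complexes (Pan2, Cops6, Eif3f and Eif3h). Of 32 tested, 9 were higher and 2 lower under the DKO label (all genes 19.4% and 11.5%), with a median log2 of 0.20 beside 0.12. In Mll2 KO 6 rose and 9 fell (all genes 14.4% and 16.2%), with a median of -0.077 beside 0.017. Eif3f was among those that rose there, and Cops6 and Eif3h were among those that fell. Atxn3, which encodes ataxin-3, a Josephin-class enzyme, measured 4.55 and 3.53 CPM in Mll2 KO, against 15.7 and 15 CPM in WT (log2 -1.93 ± 0.20, adjusted p = 3.21e-06). Otulin, which cuts linear ubiquitin chains, measured 49 and 47.4 CPM in Mll2 KO, against 28.2 and 27.3 CPM in WT (log2 0.80 ± 0.13, adjusted p = 0.000216). Senp7, a SUMO protease gene, measured 9.49 and 14 CPM under the DKO label, against 26.2 and 29.3 CPM in its controls (log2 -1.24 ± 0.18, adjusted p = 0.000123). Bap1, whose product removes ubiquitin from histone H2A, measured 38.8 and 38.5 CPM under the DKO label, against 24.2 and 25.6 CPM in its controls (log2 0.63 ± 0.12, adjusted p = 0.00126). Zranb1 rose in both lines (log2 0.69 and 0.41, adjusted p = 0.00105 and 0.0233), and Brcc3 fell in both (log2 -0.66 and -0.51, adjusted p = 0.0012 and 0.00674).

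Of 25 tested genes of cofactors, the DKO label had 7 higher and 2 lower, and Mll2 KO 1 higher and 3 lower, beside the same shares of all genes. Their median log2 differences were 0.059 and -0.011. Eny2, a subunit of the SAGA deubiquitinase module, measured 1059 and 1060 CPM under the DKO label, against 738 and 676 CPM in its controls (log2 0.58 ± 0.10, adjusted p = 0.000541). Wdr20, a cofactor of USP12 and USP46, measured 149 and 147 CPM in Mll2 KO, against 238 and 213 CPM in WT (log2 -0.60 ± 0.10, adjusted p = 0.000338). Wdr20rt, a retrotransposed copy of Wdr20, measured 18.4 and 14 CPM under the DKO label, against 2.53 and 2.19 CPM in its controls (log2 2.78 ± 0.25, adjusted p = 1.41e-06), and reads shared between these copies cannot be assigned with certainty. Gmps, a partner of USP7, fell in both lines (log2 -0.48 and -0.48, adjusted p = 0.0103 and 0.0106).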
